A study of Mus musculus with 2 samples.

Results

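The genes of the muscle microRNAs miR-206, miR-1 and miR-133 were followed in skeletal muscle of newborn mice. The 6 genes were chosen by symbol: Mir206, Mir133b, Mir1a-1, Mir133a-2, Mir133a-1 and Mir1b, of 1973 microRNA genes in the count tables. Counts on the strand opposite Mir1b were read as a further gene, Mir1a-2, which is annotated there. RNA under 30 bases had been sequenced from 2 muscle samples of strain B6NCrl at postnatal day 0, with no treatment or mutation named in the labels. Each sample was a piece of muscle from 1 pup, labelled as a biological replicate, and both carried the same donor record, so separate animals are assumed here. Since both libraries belong to 1 group, there is no contrast of conditions, and the values describe levels and their spread between replicates.

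MicroRNAs are cut from hairpin transcripts as short mature strands, named 5p or 3p by the arm they come from. Bases 2 to 8 of the strand, the seed, guide it to messenger RNAs whose output it lowers. MiR-1 and miR-133a are made together from shared primary transcripts in skeletal and heart muscle, whereas miR-206 and miR-133b come from a locus active in skeletal muscle. MiR-1 and miR-206 are known for promoting muscle differentiation, with Pax7 and Hdac4 among their targets. MiR-133 is linked to the proliferation of muscle precursors and to targets such as Srf. Mir1b is annotated on the strand opposite Mir1a-2.

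The sequences show which reads can be assigned to 1 gene. The hairpins of Mir206 (GRCm38.p6, plus strand, chr1:20679010-20679082) and Mir133b (plus strand, chr1:20682769-20682887) follow as given by RefSeq, with the mature arms in capitals.
Mir206 hairpin: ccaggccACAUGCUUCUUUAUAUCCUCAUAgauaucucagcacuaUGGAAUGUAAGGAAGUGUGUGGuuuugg
Mir133b hairpin: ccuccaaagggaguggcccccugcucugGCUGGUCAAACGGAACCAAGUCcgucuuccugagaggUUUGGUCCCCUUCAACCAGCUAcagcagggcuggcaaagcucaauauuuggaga
The mature strands below, 5′ to 3′ with the seed in capitals, are those of the RefSeq table that the results turn on.
miR-206-3p: uGGAAUGUaaggaagugugugg
miR-206-5p: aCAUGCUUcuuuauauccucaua
miR-1a-1-5p: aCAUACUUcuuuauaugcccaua
miR-133b-3p: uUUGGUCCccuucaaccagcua
miR-133b-5p: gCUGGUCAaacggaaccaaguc
The seed of miR-206-3p also occurs in the hairpins of Mir1a-1 and Mir1a-2, and that of miR-133b-3p in those of Mir133a-1 and Mir133a-2. The table held 1738 mature strands in all, and a search left out part of them, as given under the processing. Among those searched, 2 others began with the miR-206-3p seed, those of Mir6349 and Mir6382. Both genes had 0 counts in both libraries (the pair was picked out after their values were seen). The table held no 3p strand of Mir1a-1, and Mir1a-2 was outside the search, although both hairpins hold the seed. Mir6349 and Mir6382 therefore need not be the only genes whose mature strands begin with it. Counted from the 5′ end, miR-206-5p and miR-1a-1-5p had 20 of 23 bases in common and differed by G5A, C17G and U19C.

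Each mature strand above and every 22-base run (a window) of each hairpin was compared with all non-overlapping annotated microRNA genes on both strands. MiR-206-3p differed from the nearest, in Mir1a-1, Mir1a-2 and Mir1b, at 4 of its 22 bases, and miR-206-5p differed from the nearest at 3. All 52 windows of the Mir206 hairpin differed from any other microRNA gene at 2 or more bases. MiR-133b-3p, in contrast, had its first 21 bases in common with Mir133a-1 and Mir133a-2, and base 22 alone differed. MiR-133b-5p, from the other arm of that hairpin, differed from the nearest copy at 3 bases. The 3p arms of both genes, and miR-133b-5p, had 1 further exact copy among annotated transcripts, in Gm28653, the transcript that overlaps the pair.

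Mir1a-1 held 28 bases, from 45 to 72 of its 77-base hairpin, that recurred in Mir1a-2 and, on the other strand, in Mir1b. Its 5p strand, bases 10 to 32, lay outside that run and differed from the nearest copy at 2 bases. Mir133a-1 and Mir133a-2 shared 2 runs, of 24 and 31 bases. In windows, 13 of 47 (27.7%) of Mir133a-1 and 13 of 83 (15.7%) of Mir133a-2 had an exact copy in the other gene. The same held for 7 of 56 windows (12.5%) of Mir1a-1, 7 of 51 (13.7%) of Mir1a-2 and 7 of 101 (6.93%) of Mir1b. A run of at least 20 bases recurred elsewhere for 5 of the 6 genes, all but Mir206, against 21.6% of the 365 detected microRNA genes (those with at least 10 counts in both libraries). The authors set apart reads that fit more than 1 place, so such reads are missing from the counts of these 5 genes and of Mir1a-2. The search covered annotated microRNA genes only, since no genome sequence was used here.

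**Figure D1:**
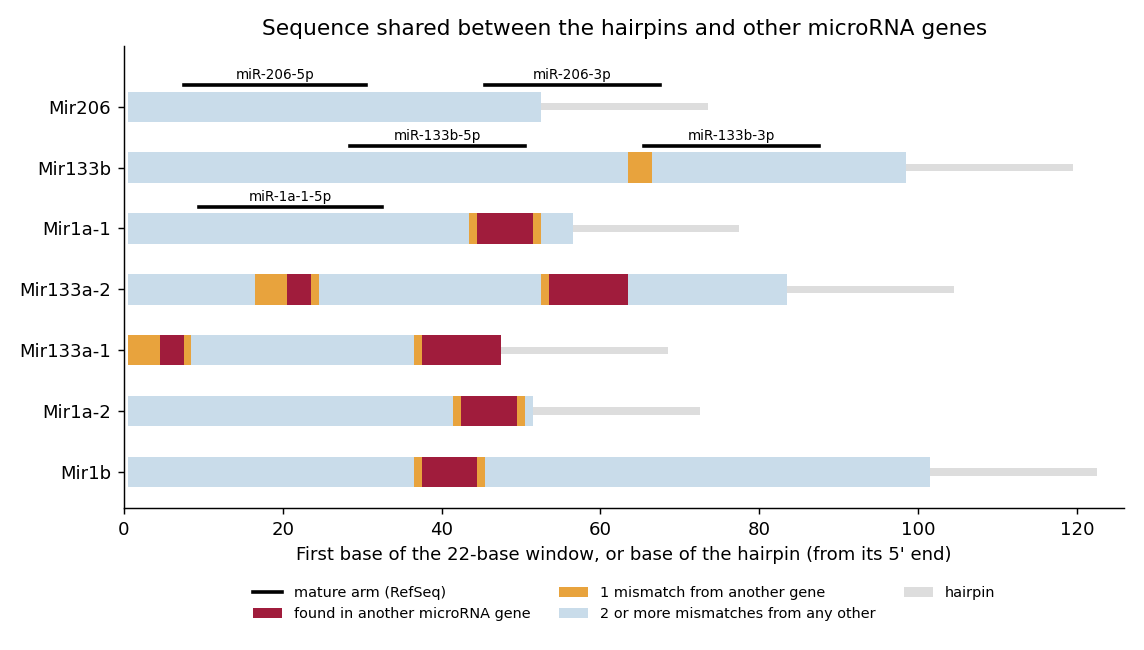
Each row is a hairpin, drawn in bases from its 5′ end, and each coloured step is a 22-base window placed at its first base. Red windows have an exact copy in another microRNA gene (0 of 52 in Mir206, 13 of 47 in Mir133a-1). Orange windows differ by 1 base and blue windows by 2 or more. Black lines mark the RefSeq mature arms used, those of Mir206, Mir133b and Mir1a-1.

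Among reads that fit 1 place, Mir206 was the most abundant microRNA gene in both libraries. It had 852425 counts in replicate 1 and 1305418 in replicate 2. These were 107144 and 120690 CPM (the usual depth-scaled read count, here over all annotated-strand microRNA reads), a mean level of 113917 ± 9579 CPM (SD, n = 2). Among annotated-strand counts, the next gene down differed between libraries: Mir335 with 58089 CPM in replicate 1 and Mir487b with 65677 CPM in replicate 2. The level of Mir206 was 1.84 ± 0.00483 times that of the next gene (SD, n = 2). As the next gene differed, this SD is not the spread of a single ratio between replicates. Mir378a, counted on the opposite strand of another row, held 747199 counts in replicate 2 and would then be next there. The ratio would be 1.80 ± 0.0689 over both libraries, again with different next genes (a reading chosen after seeing the data). No read of the Mir206 row lay on the opposite strand in either library, which allows a share of up to 3.52e-04% in replicate 1 and 2.30e-04% in replicate 2. Of the detected genes, 88.8% had 0 opposite-strand counts in both libraries. In whole-tissue samples such as these, fewer cells of a type and less RNA per cell cannot be told apart.

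Mir133b, the partner of Mir206, followed at rank 99 with 6690 counts in replicate 1 and 8902 in replicate 2. Its level was 841 CPM in replicate 1 and 823 CPM in replicate 2, a mean of 832 ± 12.6 (SD, n = 2). No read lay on its opposite strand either. The 2 hairpins lie 3687 bases apart on the plus strand of chromosome 1 (GRCm38). All 119 bases of Mir133b and 60 of the 73 bases of Mir206 are in exons of the long noncoding RNA gene Gm28653, which RefSeq lists as Lincmd1, a transcript known to act in muscle differentiation. Within a library, the level of Mir206 exceeded that of Mir133b 127-fold in replicate 1 (95% counting interval 124 to 131) and 147-fold in replicate 2 (144 to 149.7). The ratio differed between replicates by more than counting error and averaged 137 ± 13.6 (SD, n = 2). Reads of miR-133b-3p without base 22 fit Mir133a as well and would be missing from the lower value of this ratio. Divided by annotated length, the ratio of levels was 223 ± 22.2; a microRNA read is about as long as the mature strand, so the annotated length need not scale with counts.

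Mir1a-1 and Mir133a-2, the pair on chromosome 2, had far fewer counts of reads that fit 1 place. Mir1a-1 (180389048 to 180389124, plus strand) had 80 counts in replicate 1 and 70 in replicate 2, which is 10.1 CPM (95% Poisson interval 7.97 to 12.5) and 6.47 CPM (5.05 to 8.18). Mir133a-2 (180398379 to 180398482, plus strand) had 7 and 16 counts, or 0.880 CPM (0.354 to 1.81) and 1.48 CPM (0.846 to 2.40). With 7 counts in replicate 1 it missed the detection limit of 10 counts in each library, which was met by 5 of the 6 genes, against 18.5% of all 1973. RefSeq places both hairpins, 9255 bases apart, in the noncoding RNA gene Mir1a-1hg, while GENCODE M21 lists no other gene over them. Mir1a-1 exceeded Mir133a-2 in level 11.4-fold in replicate 1 (5.30 to 29.3) and 4.38-fold in replicate 2 (2.52 to 8.07), a mean of 7.90 ± 4.99 (SD, n = 2). Whether the ratio of the pair differed between libraries was not tested, and it rests on 7 and 16 counts of Mir133a-2.

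The pair on chromosome 18 consists of Mir133a-1 (10782909 to 10782976, minus strand) and Mir1a-2 (10785481 to 10785552, minus strand), 2505 bases apart. Both are in an intron of the noncoding RNA gene Mir133a-1hg and, on the other strand, of Mib1, which encodes a ubiquitin ligase of the Notch pathway. Mir133a-1 had 47 counts in replicate 1 and 60 in replicate 2, a level of 5.91 and 5.55 CPM and a mean of 5.73 ± 0.255 (SD, n = 2). The tables give another version of its gene ID than GENCODE M21, so its boundaries during counting may differ from those given here. Mir1a-2 has no row of its own in the tables. Mir1b, which spans it on the plus strand (10785446 to 10785567, in an intron of Mib1), had 18 and 14 counts on its annotated strand, a level of 2.26 and 1.29 CPM and a mean of 1.78 ± 0.685.

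On the strand opposite Mir1b, where Mir1a-2 is annotated, there were 192 counts in replicate 1 and 105 in replicate 2. They made up 91.4% of the reads of both strands at that row in replicate 1 (95% exact binomial interval 86.8 to 94.8) and 88.2% in replicate 2 (81.05 to 93.4). Read as Mir1a-2, its level was 24.1 CPM in replicate 1 and 9.71 CPM in replicate 2, a mean of 16.9 ± 10.2 (SD, n = 2), against 1.78 ± 0.685 for Mir1b. The opposite strand outnumbered the annotated one 10.7-fold in replicate 1 (6.57 to 18.4) and 7.5-fold in replicate 2 (4.28 to 14.2). Of 375 rows with at least 10 counts of both strands in both libraries, 12 (3.2%) had more counts on the opposite strand in both. A microRNA gene is annotated opposite each of these 12. Read as those genes, 7 of the 12 lay above Mir133b in mean level and none above Mir206, so the ranks given here are among annotated-strand rows. The remaining members had at most 2 opposite-strand counts, both at Mir1a-1 in replicate 1. Mir1a-2 exceeded Mir133a-1 in level 4.09-fold in replicate 1 (2.96 to 5.75) and 1.75-fold in replicate 2 (1.26 to 2.45), a mean of 2.92 ± 1.65 (SD, n = 2). In this pair the intervals do not overlap, so the libraries differed by more than counting error.

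**Figure D2:**
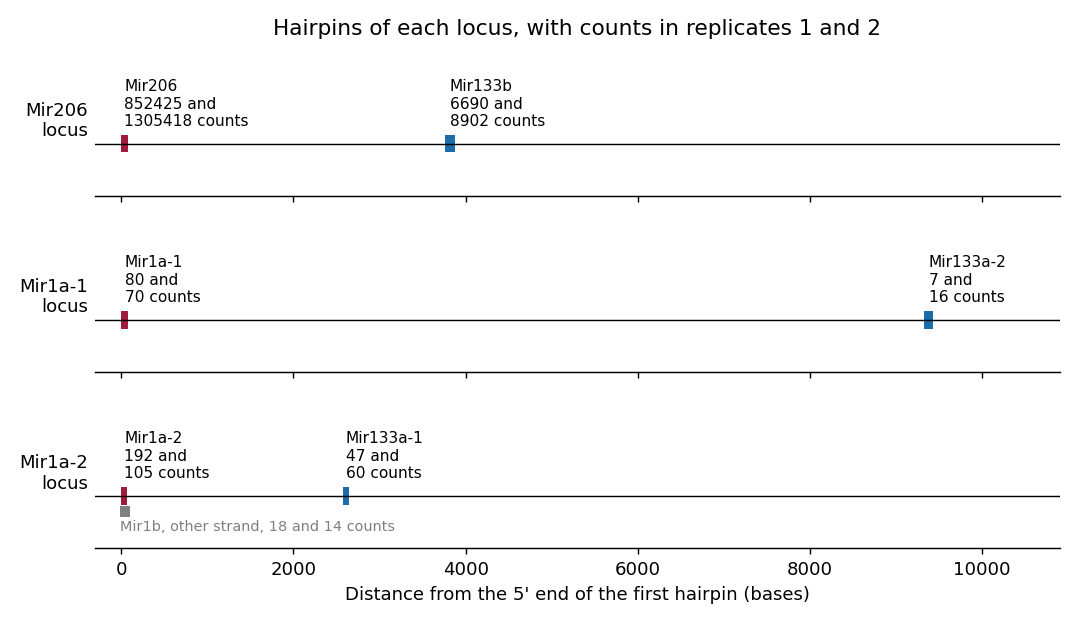
The 3 loci are drawn to scale in bases from the 5′ end of the miR-206 or miR-1 hairpin (red), with the miR-133 partner in blue and Mir1b on the other strand in grey. Counts of replicates 1 and 2 stand above each hairpin, from 852425 and 1305418 at Mir206 to 7 and 16 at Mir133a-2.

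Summed over both hairpins, the chromosome 1 locus stood at 114749 ± 9566 CPM, the chromosome 18 locus at 22.6 ± 10.5 and the chromosome 2 locus at 9.44 ± 2.11 (SD, n = 2). The chromosome 18 sum exceeded the chromosome 2 sum 2.75-fold in replicate 1 (2.14 to 3.55) and 1.92-fold in replicate 2 (1.47 to 2.52). Within the miR-133 genes, Mir133b stood above Mir133a-1 in level by 145-fold ± 4.26 (SD, n = 2) and Mir133a-1 above Mir133a-2 by 5.23-fold ± 2.10. Within the miR-1 genes, Mir1a-2 stood above Mir1a-1 by 1.95-fold ± 0.636. In each locus the miR-1 or miR-206 gene had more counts than its miR-133 partner in both libraries. These counts lack reads that fit more than 1 place. Mir133a-1 and Mir133a-2 have runs of 24 and 31 bases in common, and Mir1a-1 and Mir1a-2 a run of 28, while Mir206 has no such run. The part of lost reads in these ratios was not tested.

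In order of mean CPM, Mir206 and Mir133b were followed by Mir1a-2, Mir1a-1, Mir133a-1, Mir1b and Mir133a-2, and the order was the same per annotated base. The mean levels of Mir1a-2 and Mir1a-1 did not differ beyond their spread between libraries (a gap of 8.66 CPM against an SD of 10.2). Within libraries, Mir1a-2 was higher 2.4-fold in replicate 1 (1.84 to 3.16) and 1.5-fold in replicate 2 (1.10 to 2.06). Mir1a-1 and Mir133a-1 stood apart by 2.54 CPM, about the SD of 2.53. Mir1b and Mir133a-2 differed by 0.599 CPM, less than the SD of 0.685, and changed places between libraries. The other neighbouring pairs in this order differed by more than the larger SD.

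**Figure D3:**
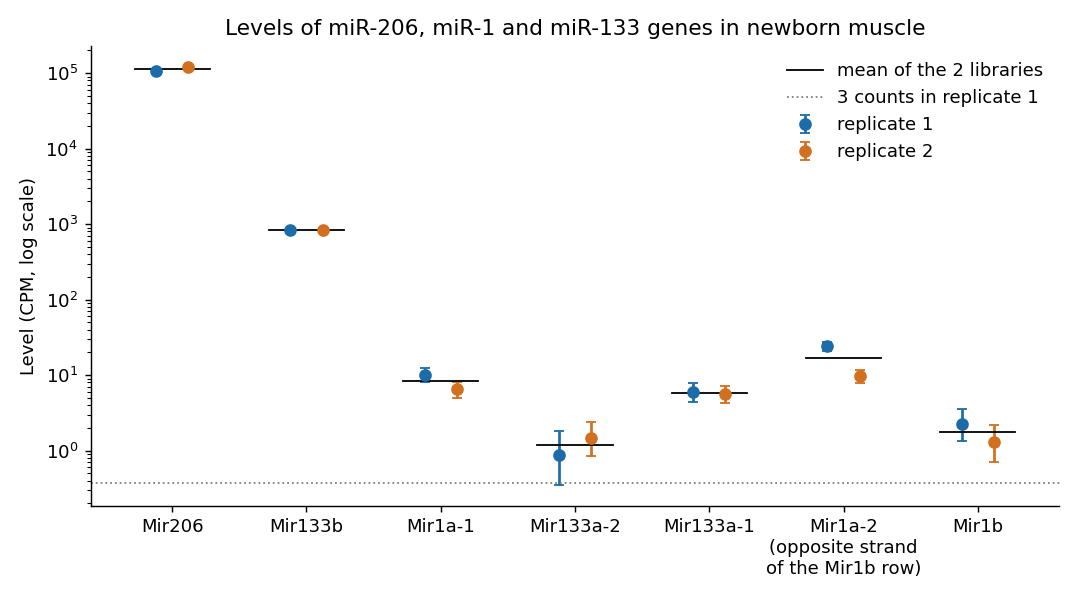
Level of each gene in CPM (log scale) in replicate 1 (blue) and replicate 2 (orange), with 95% Poisson intervals and the mean as a black bar; the dotted line is the level of 3 counts in replicate 1. Mir206 stands near 113917 CPM and Mir133b near 832 CPM, while the remaining genes lie between 0.880 and 24.1 CPM.

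How far these low levels reflect the mature microRNAs cannot be read from these counts. Reads that fit more than 1 place numbered 4594061 in replicate 1 (28.01% of all reads) and 5655304 in replicate 2 (26.9%). They equalled 5.39 and 4.33 times the counts of Mir206. The 4 genes that encode miR-1a and miR-133a had so few counts that the set-apart reads exceeded their sum 14092-fold and 22531-fold. How many of those reads came from miR-1 or miR-133 genes was not tested, because the tables give only their number. The 6 genes together took 10.8% of annotated-strand microRNA counts in replicate 1 and 12.2% in replicate 2, a mean share of 11.5% ± 0.956 (SD, n = 2). The share would be 42.9% ± 0.805 if every set-apart read belonged to them, and 7.41% ± 0.802 if none did while those reads were added to the total. Of the counts of the 6 genes, 99.3% ± 0.0756 were those of Mir206. The place of Mir206 above miR-1, miR-133 and the other microRNA genes therefore holds for reads that fit 1 place only.

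Replicate 1 held 16398945 reads and replicate 2 held 21037937, of which 48.5% and 51.4% fell on a microRNA gene in its annotated direction. At this depth 3 counts corresponded to 0.377 and 0.277 CPM, and all intervals cover counting error only. The tissue label was set beside marker genes of other cell types, listed with earlier results of these data known. The muscle genes Mir206, Mir208b and Mir499 were present, and the heart marker Mir208a had 123 and 131 counts. As Mir206 is itself a member, its presence is no separate check of the label. Endothelial Mir126a and the smooth muscle genes Mir143 and Mir145a summed to 46207 ± 1727 and 30019 ± 2139 CPM. Markers of fibroblasts and mesenchyme summed to 5867 ± 1202 CPM and those of cartilage to 2087 ± 168. Sums of erythroid (434 ± 210), leukocyte (649 ± 146), epithelial (433 ± 139) and liver (171 ± 49.9) markers were lower. All are annotated-strand sums, so the leukocyte sum leaves out reads opposite the Mir142b row, where the leukocyte gene Mir142 is annotated. Those reads alone stood at 750 ± 238 CPM. Of 7 neuronal marker genes 2 were detected, with a sum of 845 ± 8.20 CPM, and Mir124a-1, Mir124a-2 and Mir124a-3 had 0 counts. The marker lists were not searched for runs shared between genes, and reads that fit more than 1 place are missing here too. Few or 0 counts of a marker therefore cannot show that a cell type was absent. MiR-1 and miR-133a are made in heart muscle too, and the part of such cells in the counts of Mir1a-1, Mir1a-2, Mir133a-1 and Mir133a-2 was not tested.

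Set beside other muscle-enriched microRNAs, Mir133b was nearest in level to Mir208b. Mir208b, in the slow myosin gene Myh7, had 732 CPM in replicate 1 and 763 CPM in replicate 2, a level 0.899 ± 0.0396 times that of Mir133b (SD, n = 2). Mir499, in Myh7b, had 545 and 442 CPM, and Mir486, in Ank1, had 66.9 and 82.7 CPM. Mir208a, in the cardiac myosin gene Myh6, had 15.5 and 12.1 CPM, above the single levels of Mir1a-1, Mir133a-1, Mir1b and Mir133a-2 in both libraries. These 4 other muscle-enriched genes summed to 71.2 times the counts of the same 4 low members in replicate 1 and 87.8 times in replicate 2. Reads that fit more than 1 place are missing from those 4 members, and Mir1a-2 (192 and 105 counts) is not among them. The ratio therefore holds for reads that fit 1 place only. In a list of 23 further microRNAs linked to muscle formation, 21 had a row in the tables and 18 were detected. All 21 lay below Mir206 in mean level and 6 lay above Mir133b. Those 6 were Mir322 (25226 ± 2016 CPM), Mir23a (18218 ± 852), Mir23b (13720 ± 99.8), Mir214 (4891 ± 759), Mir27b (1836 ± 59.5) and Mir503 (1467 ± 382). Mir1a-1 had 17 of the 21 above it, Mir133a-1 and Mir1b 18 each, and Mir133a-2 19. In this list 12 of the 21 genes, Mir23a, Mir23b and Mir27b among them, had a run of at least 20 bases in common with another microRNA gene, so their counts may lack reads too. None of the 4 other muscle-enriched genes had such a run. Genes that overlap them were left out of that search, so reads shared with an overlapping gene were not looked for. The 2 listed genes without a row, Mir24-1 and Mir378a, lie opposite other rows, with 29.1 ± 1.40 and 63260 ± 8232 CPM there.

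Next to Mir133b in rank stood Mir425 (877 ± 266 CPM) and Mir106b (783 ± 131), both within the spread. Mir1a-1, at rank 271 of 365 detected genes, lay between Mir7007 (8.40 ± 0.380) and Mir1930 (8.26 ± 2.97). Mir133a-1, at rank 283, lay between Mir184 (5.93 ± 0.381) and Mir3100 (5.71 ± 1.86). Mir1b, at rank 339, lay between Mir1943 (1.80 ± 0.839) and Mir488 (1.77 ± 1.06). None of these neighbours differed from its member by more than the larger of the paired SDs, so single ranks are not resolved, whereas Mir206 stood above Mir487b, second by mean level among annotated-strand counts (60149 ± 7817), by 5.61 times the larger SD. Mir378a, read from the opposite strand, stood between them at 63260 ± 8232 CPM.

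**Figure D4:**
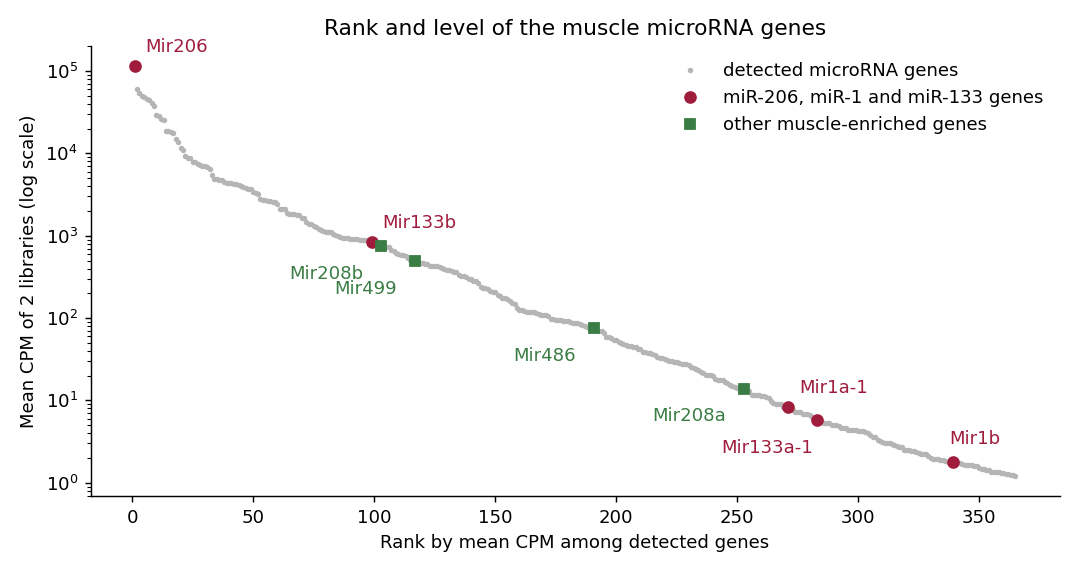
Mean CPM (log scale) of the 365 detected microRNA genes by rank, with miR-206, miR-1 and miR-133 genes as red circles and other muscle-enriched genes as green squares. Mir206 holds rank 1 and Mir133b rank 99, while Mir1a-1, Mir133a-1 and Mir1b lie at ranks 271, 283 and 339. Ranks cover reads that fit 1 place.

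Between the libraries, none of the 5 detected members differed by 2-fold or more after trimmed-mean (TMM) scaling, against 8.22% of the 365 detected genes (7.12% higher in replicate 1 and 1.1% higher in replicate 2). By library totals none of the 5 did so either, against 11.5% of the detected genes. The log2 ratio of replicate 1 over replicate 2 was -0.42 for Mir206 (95% counting interval -0.42 to -0.41) and -0.21 for Mir133b (-0.26 to -0.17). Scaled to library totals, these ratios were -0.17 and 0.03, so the sign for Mir133b flips with the scaling. Library totals moved all ratios by 0.25 in favour of replicate 1. The ratio was 0.39 for Mir1a-1 (-0.09 to 0.87), -0.15 for Mir133a-1 (-0.74 to 0.42) and 0.56 for Mir1b (-0.53 to 1.68), intervals that include 0 in each case. By library totals these were 0.64, 0.09 and 0.81, so that of Mir133a-1 changes sign and the interval of Mir1a-1 no longer includes 0. Mir133a-2, which was not detected in both libraries, had a ratio of -0.99 (-2.52 to 0.37), from 7 and 16 counts. The median ratio of the 5 detected members was -0.15, against 0.01 for all detected genes, and the median absolute ratio of all was 0.31.

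Mir1a-2, read from the opposite strand, was higher in replicate 1 than in replicate 2 with a log2 ratio of 1.07 (0.72 to 1.43), past 2-fold. Among detected genes, 7.12% were higher by 2-fold or more in replicate 1. The ratio of Mir1a-2 was 1.31 by library totals. Its neighbour Mir133a-1, on the same strand, had a ratio of -0.15 (-0.74 to 0.42), and these intervals do not overlap. With 1 library each, this difference compares the 2 libraries and has no replicate check. The genes of at least 1000 CPM (84 in all) with a ratio nearest to that of Mir206 were Mir370 (-0.42), Mirlet7d (-0.40) and Mir501 (-0.40). With 2 libraries this likeness rests on 1 ratio per gene.

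**Figure D5:**
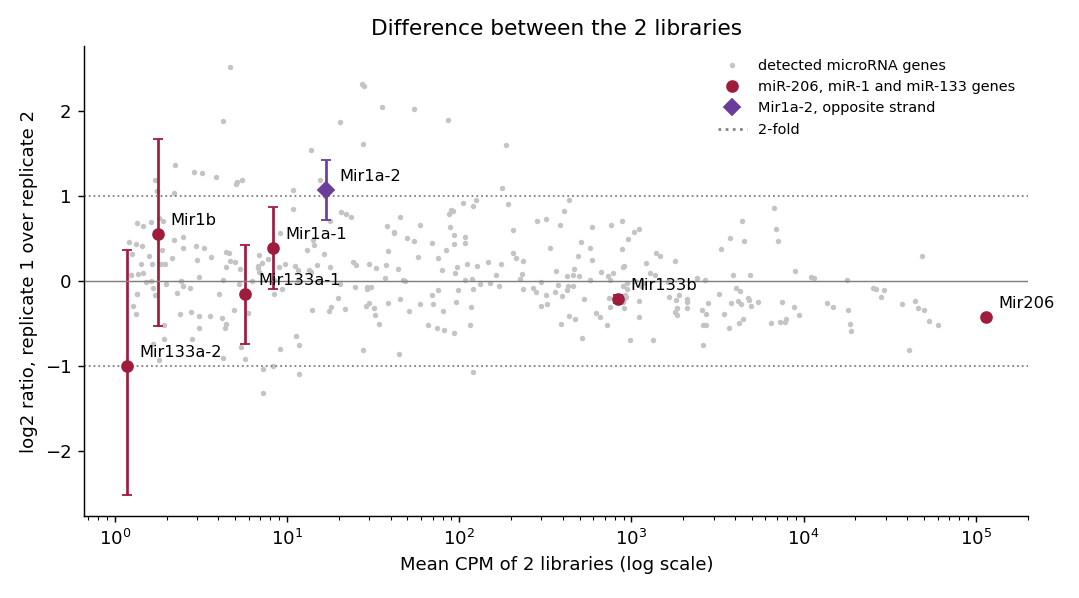
Log2 ratio of replicate 1 over replicate 2 after TMM scaling against mean CPM (log scale) for the 365 detected genes (grey), with the muscle genes in red and Mir1a-2 as a purple diamond, with 95% counting intervals. Dotted lines mark 2-fold; Mir206 lies at -0.42, and Mir1a-2 at 1.07 lies past the line.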

How the data were processed

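Small RNA was sequenced from 2 samples of newborn skeletal muscle, 1 library each. The authors deposited raw counts per microRNA gene for either strand, the annotated strand and the opposite strand; the annotated strand was taken to be the column with most counts, an inference from the values. Assembly mm10 and annotation GENCODE M4 are given in the readme texts deposited with the tables; the sources used here name neither an aligner nor a program for counting. The deposited tables held 4 rows that name no gene: reads that fit more than 1 place (28.01% and 26.9% of reads in replicates 1 and 2), unmapped reads (16.0% and 13.4%), reads in no gene (1.60% and 1.43%) and ambiguous reads (0). They stayed out of library sizes.

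IDs were matched without version to GENCODE M21 on GRCm38, the assembly also called mm10 (1894 of 1973 matched). CPM were computed from annotated-strand counts with the sum over all microRNA genes as library size. Detected genes had at least 10 counts in both libraries. Means and SDs are over 2 libraries. Ratios between libraries used TMM factors (1.09 and 0.918, edgeR 4.0.16, R 4.3.3), with exact 95% conditional binomial intervals (scipy 1.17.1), tested on simulated data. As 1 group was measured, no test was made. The libraries were not copies of each other (chi-square 209472 on 364 degrees of freedom).

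Hairpin windows of 22 bases and stretches of 20 were compared with all GENCODE M21 microRNA transcripts on both strands, leaving out overlapping genes. Printed sequences and Lincmd1 and Mir1a-1hg come from RefSeq on GRCm38.p6, where mature strands for 3 of the 7 genes were used. RefSeq sequence entries on chromosome 18 were left out, from the seed search as well, while the number of mature strands given is that of the whole table. Named genes were the members, other muscle-enriched genes, overlapping and neighbouring genes, the genes next in rank, and up to 3 genes of at least 1000 CPM with a ratio nearest to that of Mir206. Members and lists were chosen with earlier results of these data known. Alternatives were unstranded counts, other denominators, DESeq2 1.42.0 size factors, library totals, count minimums of 1 and 50, stretches of 18 and 22 bases and each replicate left out.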

Additional observations from a re-analysis of the deposited data

Results flagged for a closer look

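Outside the annotated-strand counts, the strand opposite Mir1b carried 192 counts in replicate 1 and 105 in replicate 2, where a count of 0 would allow up to 3. These are the reads described above as Mir1a-2. No further member row had more than 3 opposite-strand counts.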

How the results depend on the processing

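The share of the 6 genes was 11.5% as reported. It became 10.2% with unstranded counts, 42.9% with all reads of more than 1 place added to the genes and 7.41% with those reads added to the total alone. It ranged from 10.8% to 12.2% with a replicate left out. Detected microRNA genes numbered 365, and 591 at a count minimum of 1. Of the 6 genes, 3 were detected at a minimum of 50 in place of 5. With both replicates kept, 10 of 15 values on shares, detection, ratios of pairs and shared stretches moved by less than 1 SD or 1.5-fold. Leaving out either replicate moves a mean of 2 by less than 1 SD whatever the data, so only ranges are given: 127 to 147 for Mir206 over Mir133b, 4.38 to 11.4 for Mir1a-1 over Mir133a-2, 1.75 to 4.09 for Mir1a-2 over Mir133a-1, and 9.71 to 24.1 CPM for Mir1a-2. Detected genes numbered 377 to 400 and detected members 5 to 6. Among levels and ratios of single genes with both replicates kept, 23 of 61 values moved by more than their error, and no ratio past 2-fold changed sign. With unstranded counts, Mir1b stood at 16.6 CPM. With all reads as the denominator, all 6 levels moved. No paired analysis was possible because the samples form 1 group. Depth limits Mir133a-2 and Mir1b, at 7 to 18 counts.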
